A study of Mus musculus with 36 samples.

Results

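The comparison described here sets the Control day 5 macrophage libraries against the Control day 3 libraries of a mouse culture that turned blood progenitors into macrophages. It holds 6 of the 36 RNA-seq libraries of the series, 3 at each time, picked by their labels and by no measured value. All 6 came from haematopoietic stem and progenitor cells (HSPCs) of bone marrow labelled WT and titled Control, the comparator group of a conditional Taf1 knockout study. The day 5 macrophage cells had received GM-CSF and M-CSF for 2 days, after the 3 days in SCF and IL-3 that ended the culture of the day 3 cells. The cytokines were each given at 50 ng/ml, and the medium contained horse serum. Days 3 and 5 therefore differ both in time and in cytokines, and the 2 cannot be told apart in this pair. The control granulocyte course at day 5, which kept SCF and IL-3 and added G-CSF, and the Taf1 KO macrophage course (day 5 and day 3) are used further on to show where the change differed. The labels give neither age nor sex, nor whether the replicates came from separate mice or which mice served as controls. A p-value here therefore measures only a spread between libraries. For day 5 against day 3 that spread was pooled over the 24 libraries of the macrophage course, with both genotypes and the other days included.

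SCF acts through the receptor Kit, and IL-3 and GM-CSF act through separate alpha chains that share a common beta chain. M-CSF acts through Csf1r, the receptor on which most macrophages depend for survival. As progenitors become macrophages they usually lose stem cell factors such as Gata2 and Myb, keep the myeloid factor PU.1 (Spi1), and build up lysosomes, scavenger receptors and the machinery of phagocytosis. GM-CSF is known to drive both macrophages and dendritic cells from bone marrow, and it also supports neutrophils.

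Expression was given as TPM, a length-corrected share of the transcripts of a library. TPM keeps no depth, so no counting interval can be given. Between 10617 and 10890 genes reached 1 TPM in the day 5 macrophage libraries, and between 11007 and 11226 in the day 3 libraries. Control day 5 macrophage replicate 1 stood apart from the other 2 libraries of its group. In it 469 of 11953 genes differed by more than 2-fold from the mean of replicates 2 and 3 (334 higher, 135 lower), whereas 31 genes differed that much between replicates 2 and 3. S100a8 and S100a9, the subunits of calprotectin, a neutrophil protein, took 4.93% of its TPM, against 14.5% and 14.2% in replicates 2 and 3, and 7.96%, 6.58% and 6.61% in the day 3 libraries. Several results that rest on this library are given with and without it.

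**Figure D1:**
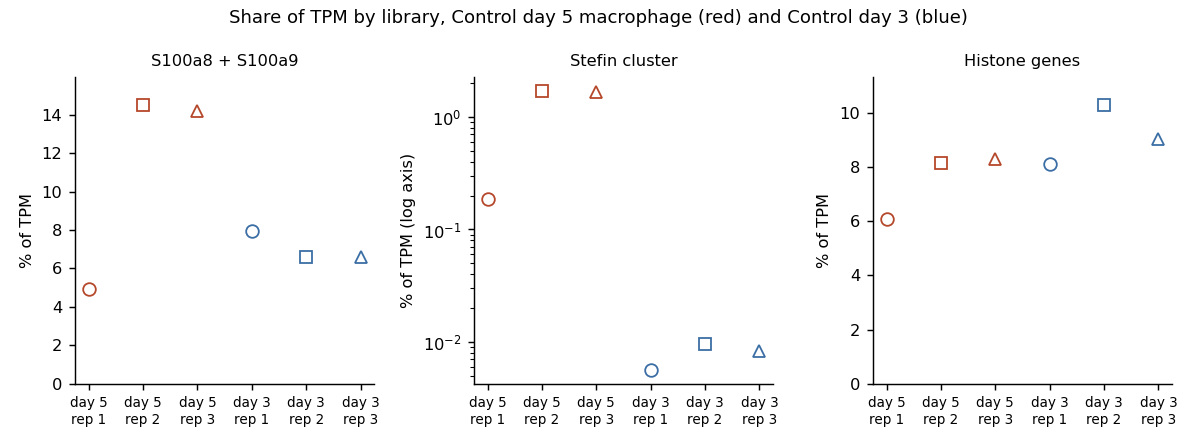
Share of all TPM, in percent, taken by S100a8 with S100a9, by the stefin gene cluster (log axis) and by histone genes in each of the 6 libraries, with Control day 5 macrophage in red on the left and Control day 3 in blue on the right. Replicate 1 of day 5 has the lowest share of S100a8 with S100a9, 4.93%, and a stefin share of 0.187%, between the 1.68% and 1.7% of its 2 replicates and the at most 0.00953% of the day 3 libraries.

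The label of the later group was checked against markers of the cell types the culture could hold. The 10 macrophage markers summed to 6370 to 8301 TPM at day 5 and 3985 to 4819 TPM at day 3, and none was at 0. Most of that sum was Lyz2, with 5573 to 7285 TPM at day 5 and 3334 to 3942 TPM at day 3. Adgre1, Cd68, Msr1, Mertk and Fcgr1 were also higher in every day 5 library, Csf1r, C1qa and C1qb were lower in each, and Mrc1 overlapped. The sum therefore says little about the macrophage markers as a set. The 7 neutrophil markers summed to far more, 54985 to 160863 TPM at day 5 and 74721 to 89680 TPM at day 3. Most of that sum was S100a8 and S100a9, with 19108 to 76899 TPM and 30180 to 69677 TPM at day 5. The next largest at day 5 were Ngp, with 2275 to 8155 TPM, and Ltf, with 2035 to 5168 TPM. Monocyte markers (4) summed to 1185 to 1678 TPM at day 5 and 1161 to 1632 TPM at day 3. Of the 3 lymphoid markers 2 were at 0 in all day 5 libraries, and their sum was at most 0.03 TPM at day 5 and 0.05 TPM at day 3. The libraries labelled macrophage thus held abundant neutrophil transcripts as well, and the name is used below for the course of culture, not for a pure cell type. In such bulk RNA, fewer cells of a type and less RNA per cell cannot be told apart.

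A large part of the transcriptome moved. Of the 11953 genes that passed the filter (1 TPM or more in 3 or more libraries), 3061 were higher in day 5 macrophage libraries (25.6%) and 2946 lower (24.6%) at an adjusted p under 0.05 with limma, and the median change of all genes was 0.01. Changes are differences of means of log2(TPM + 1), day 5 macrophage minus day 3, given ± SE with n = 3 in each group. The SE uses the spread pooled over the whole fit. The added 1 TPM shrinks the change of weakly expressed genes. Most calls were small: the median size was 0.56, and 358 genes rose and 671 fell by more than 1. In 5248 of the 6007 called genes the 2 groups of libraries did not overlap, and this holds for every passing gene given library by library below unless an overlap is stated. With the 2 groups fitted alone, on fewer residual degrees of freedom, 2012 genes were higher and 1897 lower.

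The receptors for the culture cytokines changed unevenly. Csf1r, the M-CSF receptor, had 30.03, 30.6 and 32.9 TPM in the day 5 macrophage libraries, against 74.5, 62 and 64.2 TPM in the day 3 libraries. It was thus lower in each day 5 library, after 2 days in GM-CSF and M-CSF, than in any day 3 library (-1.07 ± 0.11, adjusted p = 1.71e-07). Kit, the SCF receptor, had 6.12, 5.37 and 7.01 TPM at day 5 and 11.9, 12 and 12.1 TPM at day 3, and fell (-0.86 ± 0.18, adjusted p = 0.000619). Il3ra, the IL-3 alpha chain, had 19.5, 6.83 and 8.74 TPM at day 5, with replicate 1 well above the others, and 26.4, 21.5 and 20.2 TPM at day 3 (-1.02 ± 0.23, adjusted p = 0.000906). For the GM-CSF alpha chain Csf2ra the values were 51.3, 35 and 38.3 TPM at day 5 and 43.2, 33.9 and 30.03 TPM at day 3, and for the shared beta chain Csf2rb they were 179, 162 and 181 TPM at day 5 and 137, 167 and 172 TPM at day 3. Both overlapped between the days and neither passed the test (0.21 ± 0.19, adjusted p = 0.363 for Csf2ra, 0.14 ± 0.25, adjusted p = 0.668 for Csf2rb).

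Of 19 tested receptors in the list of myeloid cytokine receptors, 3 rose and 10 fell, with a median change of -0.56. Ifngr1, a chain of the interferon gamma receptor, had 79.6, 73.1 and 75.3 TPM at day 5 against 308, 293 and 316 TPM at day 3 (-1.99 ± 0.14, adjusted p = 6.52e-10). Tgfbr2, a TGF-beta receptor, was among the 3 that rose (47.2, 45.9 and 51.8 TPM at day 5, 21.6, 17.7 and 17.8 TPM at day 3; 1.3 ± 0.14, adjusted p = 2.74e-07). Il6st, the chain shared by the IL-6 family, fell, with a change of -1.17. Targets that cytokine receptors of this kind are known to induce fell with them, 12 of 22 against 3 that rose, with a median of -0.61; 1 rose without day 3 replicate 2, day 3 replicate 3 or day 5 replicate 3. Pim2, a survival kinase, had 2.09, 1.46 and 2.24 TPM at day 5 and 8.98, 15 and 16 TPM at day 3 (-2.26 ± 0.17, adjusted p = 2.11e-09). Socs1, a feedback inhibitor of JAK kinases, had 14.9, 16.8 and 17.4 TPM at day 5 and 67.6, 58 and 56.6 TPM at day 3 (-1.83 ± 0.14, adjusted p = 3.09e-09). Cish, Socs3, Pim1 and Pim3 were lower as well, whereas the survival genes Bcl2l1 (0.9 ± 0.14, adjusted p = 2.78e-05) and Mcl1 were higher.

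Most transcription factors of progenitors fell: 20 of 30 were lower and 1, Ikzf1, was higher, with a median of -0.78. Gata2, a factor of stem cells, mast cells and basophils, had 7.31, 3.4 and 4.3 TPM at day 5 and 17.5, 22.1 and 22.9 TPM at day 3, libraries that did not overlap (-1.91 ± 0.28, adjusted p = 1.58e-05). Mycn was at 1.11, 0.36 and 0.29 TPM at day 5 and 7.42, 11 and 11.3 TPM at day 3 (-2.8 ± 0.19, adjusted p = 4.95e-10). Myb, a factor of immature cells, had 48.2, 31.2 and 30.7 TPM at day 5 and 49.5, 76.1 and 81.4 TPM at day 3 (-0.89 ± 0.31, adjusted p = 0.0224). Its 2 groups came close, 48.2 TPM in replicate 1 of day 5 and 49.5 TPM in replicate 1 of day 3. Meis1, a stem cell homeobox factor, Zfpm1, the GATA partner FOG-1, and Bcl11a fell, with changes of -1.95, -2.28 and -1.36. Cebpa, which drives granulocytes and monocytes from progenitors, had 34.2, 31.7 and 31.6 TPM at day 5 and 58.5, 68.9 and 66.4 TPM at day 3 (-0.97 ± 0.11, adjusted p = 5.69e-07). Myc, by contrast, had 52.4, 43.9 and 48 TPM at day 5 and 47, 65.5 and 71.5 TPM at day 3, which overlapped and did not pass (-0.33 ± 0.15, adjusted p = 0.0838).

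Genes of the progenitor state followed, with 16 of 19 lower, 3 higher and a median of -0.89. Cd34, a surface sialomucin of progenitors, had 17.6, 11.5 and 11 TPM at day 5 and 56, 72.1 and 80.9 TPM at day 3 (-2.31 ± 0.17, adjusted p = 2.54e-09). Adgrg1, an adhesion receptor of stem cells, had 15.4, 3.47 and 5.01 TPM at day 5 and 42.2, 51.8 and 53 TPM at day 3 (-2.71 ± 0.31, adjusted p = 7.11e-07). Angpt1, Slamf1 and Egfl7 fell, with changes of -1.88, -1.99 and -2.04.

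Among 24 transcription factors of monocytes and macrophages, 8 rose and 4 fell, with a median of 0.23; the share that rose, against 25.6% of all genes, was near the background. Spi1, which encodes PU.1, had 221, 265 and 269 TPM at day 5 and 175, 152 and 152 TPM at day 3 (0.65 ± 0.09, adjusted p = 9.92e-06). Irf8, needed for monocytes, had 18.8, 18 and 19.3 TPM at day 5 and 14.8, 12.9 and 13.3 TPM at day 3 (0.43 ± 0.11, adjusted p = 0.0042). Pparg, a lipid-sensing nuclear receptor that GM-CSF induces in alveolar macrophages, had 61.9, 52.8 and 51.5 TPM at day 5 and 40.4, 30.1 and 36.7 TPM at day 3 (0.62 ± 0.20, adjusted p = 0.0129). Its partner Rxra rose by 1.02, and the oxysterol receptor Nr1h3 (LXR alpha) and Bhlhe41, another factor of alveolar macrophages, each by 1.4. Maf, Tfec and Runx3 fell. Klf4 and Egr2 overlapped between the days and did not pass (0.53 ± 0.32, adjusted p = 0.186 and -0.15 ± 0.25, adjusted p = 0.628), and Mitf did not pass either (0.28 ± 0.12, adjusted p = 0.0594).

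Of 29 macrophage effector and surface genes 18 rose and 4 fell, with a median of 0.53. Gpnmb, a glycoprotein of lipid-laden macrophages, had 1019.8, 881 and 879.6 TPM at day 5 against 153, 171 and 186 TPM at day 3 (2.44 ± 0.26, adjusted p = 2.6e-07). Cd36, a receptor for oxidised lipids and fatty acids, had 478, 192 and 220.1 TPM at day 5, highest in replicate 1, and 50.9, 27.5 and 28.7 TPM at day 3 (2.95 ± 0.26, adjusted p = 2.19e-08). Msr1, the class A scavenger receptor, had 104, 98.5 and 97.3 TPM at day 5 and 20.9, 18 and 21.2 TPM at day 3 (2.26 ± 0.21, adjusted p = 3.32e-08). Its day 5 libraries lay within a few TPM of each other and far above every day 3 library. Fcgr1, the high-affinity IgG receptor, had 22.9, 15.2 and 15.8 TPM at day 5 and was close to the filter at day 3, with 1.79, 1.52 and 1.71 TPM (2.81 ± 0.18, adjusted p = 3.47e-10). Marco, another scavenger receptor, was low at both times (4.85, 2.78 and 3.08 TPM at day 5, 0.27, 0.05 and 0.1 TPM at day 3; 1.98 ± 0.15, adjusted p = 2.2e-09).

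Adgre1, Cd68 and Mertk, 3 other genes used to identify macrophages, moved less than Gpnmb, Cd36, Msr1, Fcgr1 and Marco. Adgre1, which encodes F4/80, had 171, 135 and 134 TPM at day 5 and 119.8, 90.4 and 98.7 TPM at day 3 (0.5 ± 0.15, adjusted p = 0.0104). Cd68, a lysosomal glycoprotein, had 439, 323 and 312 TPM at day 5 and 282, 195 and 206 TPM at day 3 (0.65 ± 0.20, adjusted p = 0.0096). Mertk, a receptor for dying cells, had 11.1, 8.63 and 9.2 TPM at day 5 and 7.31, 5.77 and 6.8 TPM at day 3 (0.48 ± 0.17, adjusted p = 0.0262). For these 3 genes the libraries did not overlap, but without day 5 replicate 1 none passed, with changes of 0.39, 0.5 and 0.38 and adjusted p-values of 0.0532, 0.0522 and 0.0939. Without that library 13 of the macrophage genes rose and 4 fell. Mrc1, the mannose receptor, and Fabp4, a fatty acid carrier, overlapped between the days (-0.35 ± 0.26, adjusted p = 0.273 and -0.19 ± 0.26, adjusted p = 0.566).

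**Figure D2:**
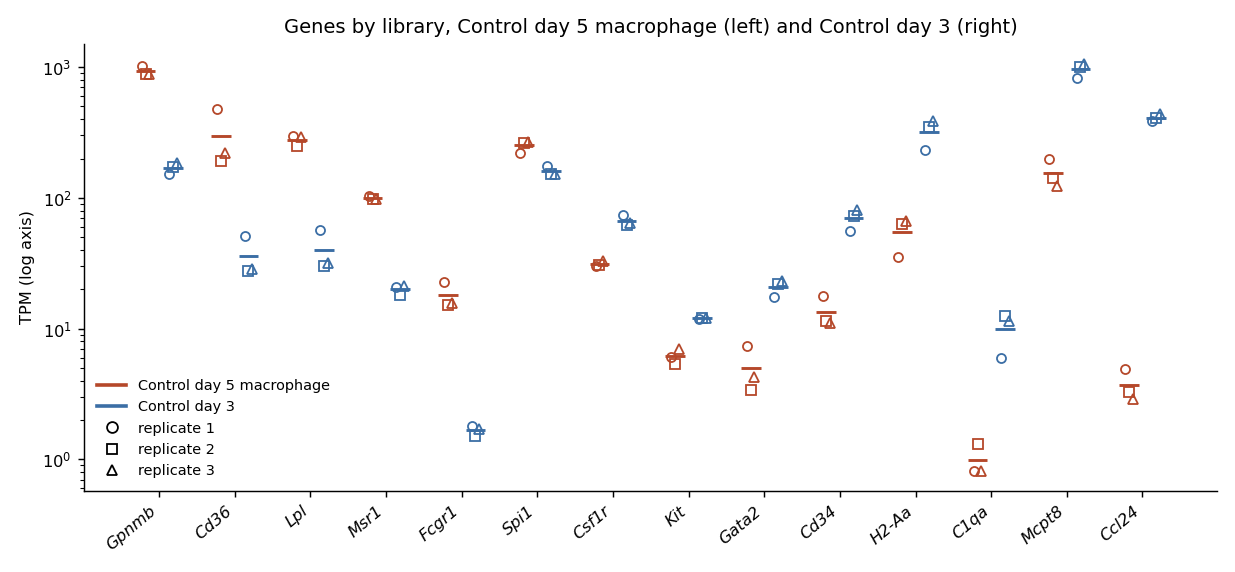
TPM (log axis) of 14 genes in each library, with Control day 5 macrophage in red on the left and Control day 3 in blue on the right of each pair; symbols mark the replicate and the short line the mean of 3. Gpnmb, Cd36, Lpl, Msr1, Fcgr1 and Spi1 are higher in every day 5 library, and Csf1r, Kit, Gata2, Cd34, H2-Aa, C1qa, Mcpt8 and Ccl24 lower.

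The 4 members of the macrophage list that fell were the C1q genes and Apoe. C1qa, C1qb and C1qc encode the chains of complement C1q, which macrophages secrete. C1qa had 0.82, 1.32 and 0.82 TPM at day 5 and 6.0, 12.4 and 11.5 TPM at day 3 (-2.42 ± 0.28, adjusted p = 9.02e-07), and C1qb had 3.17, 5.27 and 4.28 TPM at day 5 and 31.3, 49 and 53.3 TPM at day 3 (-3.1 ± 0.32, adjusted p = 2.03e-07). C1qc fell, with a change of -2.56. Apoe, the lipid carrier, had 7.55, 2.24 and 3.31 TPM at day 5 against 99.2, 43.4 and 46.4 TPM at day 3, where replicate 1 held the highest level (-3.6 ± 0.48, adjusted p = 4.23e-06). Of the monocyte genes 3 of 19 rose and 5 fell, both shares under or near those of all genes. F13a1, a clotting factor subunit of monocytes, had 53.8, 27.1 and 31 TPM at day 5 and 292, 248 and 270.1 TPM at day 3 (-2.88 ± 0.58, adjusted p = 0.00039). Ccr2, the receptor for Ccl2, had 15.1, 21 and 25.7 TPM at day 5 and 45, 46.1 and 47.2 TPM at day 3 (-1.16 ± 0.35, adjusted p = 0.00884). Ly6c2 overlapped and did not pass (0.35 ± 0.35, adjusted p = 0.432).

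MHC class II genes, which present peptides to CD4+ T cells, were lower in 10 of 11 cases, with a median of -1.56, and none rose. H2-Aa, a class II alpha chain, had 35.2, 63.6 and 67 TPM at day 5 and 232, 347 and 385 TPM at day 3 (-2.54 ± 0.43, adjusted p = 6.39e-05), and its partner H2-Ab1 fell, with a change of -2.47. Cd74, the invariant chain, had 134, 194 and 181 TPM at day 5 and 446, 627 and 686 TPM at day 3 (-1.78 ± 0.44, adjusted p = 0.0023). Ciita, the master activator of class II transcription, was lower too. MHC class I genes and their peptide-loading partners fell in 10 of 12 cases with a median of -0.69. H2-K1 had 345, 225 and 218 TPM at day 5 and 569, 476 and 493 TPM at day 3 (-0.99 ± 0.14, adjusted p = 7.89e-06), and the light chain B2m had 1035, 876 and 886 TPM at day 5 and 1493, 1474 and 1501 TPM at day 3 (-0.68 ± 0.09, adjusted p = 5.44e-06). Tap1, a subunit of the peptide transporter, and the immunoproteasome subunit Psmb9 fell, with changes of -1.32 and -0.99. The class I and class II genes share sequence within their families, so reads may have been divided between members.

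Genes of dendritic cells, the other cell type that GM-CSF cultures give, fell in 11 of 20 cases and rose in 5, with a median of -0.78. Ccr7, the homing receptor of mature dendritic cells, had 3.0, 3.87 and 3.02 TPM at day 5 and 19, 35.1 and 38.9 TPM at day 3 (-2.84 ± 0.27, adjusted p = 5.52e-08). Irf4 had 1.5, 1.66 and 1.88 TPM at day 5 and 10.3, 7.39 and 8.5 TPM at day 3 (-1.85 ± 0.13, adjusted p = 1.5e-09), and the actin bundler Fscn1 and the maturation marker Cd83 fell, with changes of -2.19 and -2.04. The chemokine Ccl17 rose, with 203, 174 and 145 TPM at day 5 against 27.5, 37.9 and 53.7 TPM at day 3 (2.14 ± 0.35, adjusted p = 5.21e-05). Itgax, which encodes CD11c and is carried by macrophages as well, had 59.8, 44.3 and 50.2 TPM at day 5 and 16.6, 16.8 and 18.6 TPM at day 3 (1.51 ± 0.26, adjusted p = 7.24e-05). The 5 dendritic cell markers of the check of cell types summed to 4.53 to 5.59 TPM at day 5 and 24.8 to 46.6 TPM at day 3.

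Among 38 lysosomal genes 21 rose and 6 fell, with a median of 0.38. Gusb, beta-glucuronidase, had 131, 169 and 176 TPM at day 5 and 40, 53.9 and 52.1 TPM at day 3 (1.68 ± 0.15, adjusted p = 2.76e-08). Lipa, the acid lipase that frees cholesterol from lipoproteins, had 257, 195 and 202 TPM at day 5 and 101, 74.6 and 77.4 TPM at day 3 (1.36 ± 0.14, adjusted p = 2.62e-07). Scarb2 and the proton pump subunit Atp6v1b2 rose by 1.0 and 0.77. Glb1, beta-galactosidase, was the exception with the smallest p, at 61.9, 41 and 39.1 TPM on day 5 and 125, 134 and 140.1 TPM on day 3 (-1.5 ± 0.14, adjusted p = 5.1e-08). Among 12 cathepsins 6 rose and 2 fell. Ctsd, an aspartic protease of the lysosome, had 9294, 5598 and 5380.3 TPM at day 5, highest in replicate 1, and 2587, 1869 and 2030.1 TPM at day 3 (1.61 ± 0.20, adjusted p = 1.4e-06). Ctsl had 1671, 1012 and 989 TPM at day 5 and 676, 557 and 596 TPM at day 3 (0.97 ± 0.21, adjusted p = 0.000747), and Ctsb and Ctsk rose by 0.98 and 1.21.

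Many lysosomal genes carry, near their start, an E-box read by the MiT/TFE factors. The letters TCACGTG, sought on both strands from 250 bases before to 50 after the start of each gene in RefSeq's annotation of GRCm38.p6, were found in 10 of the 29 lysosomal genes with a window (34.5%), of which 5 were higher and 3 (Gaa, Naglu and Glb1) lower at day 5, and in 649 of 9120 tested genes (7.12%). Stretches around it are shown for 3 of the 5 lysosomal genes that rose, in capitals the E-box, with neighbouring overlapping matches joined. They are Lamp1 (chr8:13159063-13159141, plus strand), which lines the lysosomal membrane, and the proton pump subunits Atp6v0d1 (chr8:105566026-105566104, minus strand) and Atp6v1a (chr16:44139349-44139427, minus strand).
Lamp1: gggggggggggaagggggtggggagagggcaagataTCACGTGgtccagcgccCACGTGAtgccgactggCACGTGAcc
Atp6v0d1: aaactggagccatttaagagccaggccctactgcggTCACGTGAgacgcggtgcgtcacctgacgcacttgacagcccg
Atp6v1a: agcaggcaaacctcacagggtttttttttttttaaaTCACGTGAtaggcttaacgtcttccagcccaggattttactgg
Lamp1 holds the letters at 3 places within 79 bases, and all 3 stretches were read 5′ to 3′ on the strand of the gene. A match describes the letters and is no measured site, and no binding was measured here.

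Of 29 genes that take up, store or export lipid, 16 rose and 3 fell, with a median of 0.62. Lpl, the lipoprotein lipase, had 296, 249 and 292 TPM at day 5 and 57.1, 30.1 and 31.7 TPM at day 3 (2.84 ± 0.19, adjusted p = 4.95e-10). Plin2, which coats lipid droplets, and the efflux pump Abcg1 were also higher. Mylip, a ubiquitin ligase and LXR target, was lower (-1.48 ± 0.18, adjusted p = 1.16e-06). Cholesterol synthesis rose as a group, 19 of 24 genes against 1 lower, with a median of 0.99. Hmgcs1, which starts the mevalonate pathway, had 41.5, 64.1 and 72.8 TPM at day 5 and 24.3, 30.8 and 28.3 TPM at day 3 (1.04 ± 0.17, adjusted p = 4.45e-05). Sqle, squalene epoxidase, had 41, 59.8 and 66.1 TPM at day 5 and 21, 26.3 and 26.6 TPM at day 3 (1.12 ± 0.20, adjusted p = 9.21e-05). In both genes, and in Hsd17b7 (5.99, 19.5 and 22.8 TPM at day 5, 2.72, 3.86 and 3.22 TPM at day 3), the lowest day 5 value was that of replicate 1. Without that library 23 of the 24 rose, without day 3 replicate 1 15, and with the 2 groups fitted alone 14. In 13 of the 24 every day 5 library lay above every day 3 library, a count with no share over all tested genes to set it against. Insig1, the sterol sensor that feeds back on the pathway, rose by 1.39, and Fasn, fatty acid synthase, by 1.48 (2.02 without day 5 replicate 1). Of 15 fatty acid synthesis genes 5 rose and none fell (9 rose without that library). An exact form of the sterol response element, with no variants allowed, was found in the windows of 0 of 17 cholesterol genes and of 5 of 9120 tested genes (0.0548%). With so few matches among all genes, 0 of 17 cannot tell whether these windows hold such elements.

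Genes that sense microbes rose in 10 of 17 cases, with 1 lower and a median of 0.40. Tlr13, an endosomal receptor for bacterial ribosomal RNA in mice, had 67.9, 79.8 and 83.5 TPM at day 5 and 26.6, 18.6 and 19.1 TPM at day 3 (1.81 ± 0.15, adjusted p = 1.25e-08). Tlr7, a receptor for single-stranded RNA, had 11.3, 10.5 and 14.8 TPM at day 5 and 4.69, 3.88 and 4.05 TPM at day 3 (1.33 ± 0.18, adjusted p = 5.03e-06), and Tlr2 rose by 1.14. Of the 7 subunits of the phagocyte NADPH oxidase 4 rose and none fell. The count that rose was 6 without day 5 replicate 1, and 2 when replicate 2 or 3 of either day was left out. Cybb, its catalytic subunit, had 147, 322 and 368 TPM at day 5 and 150.2, 133 and 134 TPM at day 3; replicate 1 of day 5 lay among the day 3 libraries (0.9 ± 0.32, adjusted p = 0.0245). C-type lectins divided evenly, 5 of 15 higher and 5 lower (3 without day 5 replicate 3), against 25.6% and 24.6% of all genes. Clec4n, the fungal receptor dectin-2, had 205, 236 and 233 TPM at day 5 and 58, 43.8 and 49.98 TPM at day 3 (2.14 ± 0.48, adjusted p = 0.000978), and its neighbour in the same gene cluster Clec4d rose by 1.82. Clec4a1 was nearly lost, at 0.27, 0.44 and 0.41 TPM on day 5 and 8.86, 7.12 and 5.87 TPM on day 3 (-2.58 ± 0.15, adjusted p = 1.01e-10). Fcgr2b, the inhibitory IgG receptor, fell to 156, 91.3 and 91.8 TPM at day 5, against 311, 279.9 and 317 TPM at day 3 (-1.46 ± 0.19, adjusted p = 3.16e-06), opposite in direction to the activating Fcgr1. Of 6 Fc receptor genes 2 rose and 1 fell.

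Of 26 chemokines and cytokines 10 were higher and 7 lower, against 25.6% and 24.6% of all genes, so the share that fell was near the background. The lower count was 4 without day 3 replicate 1 or day 5 replicate 3, and 3 without day 3 replicate 3 or day 5 replicate 2. Ccl2, which draws monocytes, had 588, 653 and 655 TPM at day 5 against 68.3, 73.9 and 77.4 TPM at day 3 (3.09 ± 0.26, adjusted p = 1.49e-08). Ccl7, beside it on chromosome 11, had 275, 259.6 and 264 TPM at day 5 and 47.8, 51 and 52.4 TPM at day 3 (2.38 ± 0.35, adjusted p = 1.5e-05). The eosinophil chemokine Ccl24 had the largest fall of all genes named by size, to 4.95, 3.25 and 2.9 TPM at day 5, against 386, 408 and 441 TPM at day 3 (-6.48 ± 0.49, adjusted p = 3.03e-09). Retnla, a secreted marker of alternative activation by IL-4 and IL-13, followed with 19.99, 8.94 and 8.76 TPM at day 5 and 847, 606 and 672 TPM at day 3 (-5.79 ± 0.53, adjusted p = 4.03e-08). Il6 had 13.4, 1.86 and 1.76 TPM at day 5, with replicate 1 above the others, and 44.6, 54.5 and 57 TPM at day 3 (-3.44 ± 0.40, adjusted p = 9.28e-07). The list of alternative activation genes had 7 of 16 members lower and 1 higher, with a median of -1.28. Arg1, arginase 1, did not pass: it had 3661, 610.3 and 689 TPM at day 5 and 4388, 2641 and 2953 TPM at day 3, with replicate 1 of day 5 among the day 3 levels (-1.49 ± 1.6, adjusted p = 0.456).

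Stefins had the largest rises. These small inhibitors of cysteine cathepsins lie side by side on mouse chromosome 16, and 8 of the 15 largest rises came from that cluster. Stfa3 had 101, 757 and 775 TPM at day 5 against 0.25, 1.0 and 0.49 TPM at day 3 (7.98 ± 0.53, adjusted p = 5.47e-10). BC100530 had 709, 6927 and 6801 TPM at day 5 and 11.2, 20.8 and 18.4 TPM at day 3 (7.54 ± 0.63, adjusted p = 1.05e-08), and Stfa2 had 243, 1394 and 1344 TPM at day 5 and 4.15, 5.27 and 3.83 TPM at day 3 (7.16 ± 0.46, adjusted p = 3.83e-10). Replicate 1 of day 5 held much less than its 2 replicates in each of these, yet far more than any day 3 library. The other members in this group, Gm5483, Stfa1, Stfa2l1, 2010005H15Rik and Gm5416, rose by 3.45 to 6.4. The genes are near-identical copies, so how the reads were divided between them is uncertain, and the sum over the cluster is the firmer value, 0.187%, 1.7% and 1.68% of TPM at day 5 against 0.00566%, 0.00953% and 0.00825% at day 3. Outside the cluster, Pdpn, the glycoprotein podoplanin, had 34.2, 20.1 and 21.1 TPM at day 5 and 0.59, 0.32 and 0.49 TPM at day 3 (4.12 ± 0.34, adjusted p = 8.15e-09). Npy, neuropeptide Y, had 81.9, 61.3 and 61.2 TPM at day 5 and 1.9, 3.68 and 3.58 TPM at day 3 (4.11 ± 0.18, adjusted p = 2.19e-12). Slc39a2, a zinc importer, rose by 3.44, and Amd2 and Mir8097 by 3.45 and 4.09. For Amd2 the SE was large (3.45 ± 0.89, adjusted p = 0.00306), with means of 16.4 TPM at day 5 and 0.583 TPM at day 3. The related gene Amd1 did not pass (0.09 ± 0.31, adjusted p = 0.83), and how reads were divided between Amd1 and Amd2 was not tested.

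Late neutrophil genes rose in a share near the 25.6% of all genes. Of 27 genes of late neutrophils 7 rose, 2 of them stefins, and 2 fell, with a median of 0.39; 9 rose without day 5 replicate 1 and 4 without day 5 replicate 3. S100a8 had 19108, 74853 and 76899 TPM at day 5 and 32657, 29199 and 28074 TPM at day 3 and did not pass (0.68 ± 0.46, adjusted p = 0.226). Without replicate 1 of day 5 its change was 1.34 and passed (adjusted p = 0.00672), while S100a9 still did not (0.74, adjusted p = 0.261). Camp, a peptide of the secondary granules, had 592, 2067 and 1988 TPM at day 5 and 1511, 1042 and 1109 TPM at day 3, with the day 3 libraries between replicate 1 and the other day 5 libraries (adjusted p = 0.878). Ltf, lactoferrin of the same granules, had 2035, 5168 and 4853 TPM at day 5 and 2987, 1838 and 2011 TPM at day 3 (adjusted p = 0.472). Cxcr2, the chemokine receptor of mature neutrophils, fell to 25.7, 16.9 and 17.6 TPM at day 5, against 112, 83.4 and 92.1 TPM at day 3 (-2.21 ± 0.18, adjusted p = 1.02e-08). The formyl peptide receptor Fpr1 had 86.9, 92 and 89.1 TPM at day 5 and 58.5, 26.3 and 32.1 TPM at day 3 (1.26 ± 0.19, adjusted p = 1.87e-05). Among 13 primary granule genes 2 rose (4 without day 5 replicate 1) and 1 fell, with Mpo and Elane not passing (-0.54 ± 0.43, adjusted p = 0.311 and -1.17 ± 0.56, adjusted p = 0.0875).

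Genes of other lineages that SCF and IL-3 support were mostly lower. Mast cell and basophil genes were lower in 15 of 22 cases and higher in 3, with a median of -1.50. Mcpt8, a basophil protease, had 199, 142 and 124 TPM at day 5 and 831, 1006 and 1051 TPM at day 3 (-2.65 ± 0.53, adjusted p = 0.000353). Il4, a cytokine of basophils and mast cells, had 3.2, 2.04 and 2.17 TPM at day 5 and 36.7, 38.9 and 46.1 TPM at day 3 (-3.59 ± 0.18, adjusted p = 7.57e-12), and Il13 fell, with a change of -2.63. Hdc, which makes histamine, had 21.7, 29.8 and 25.5 TPM at day 5 and 149, 212 and 208 TPM at day 3 (-2.83 ± 0.25, adjusted p = 2.73e-08). Cpa3, a mast cell protease, had 145, 87.6 and 80.04 TPM at day 5 and 191, 337 and 332 TPM at day 3 (-1.45 ± 0.45, adjusted p = 0.0108). The summed level of the 6 mast cell and basophil markers was 254 to 416 TPM at day 5 and 1231 to 1682 TPM at day 3, and that of the 4 megakaryocyte markers 471 to 823 TPM at day 5 and 1316 to 2305 TPM at day 3. The part of these cells in the change of other genes was not tested.

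Megakaryocyte genes fell in 18 of 21 cases and none rose, with a median of -1.42. Pf4, platelet factor 4, had 629.8, 365 and 363 TPM at day 5 and 799, 1349.6 and 1421 TPM at day 3 (-1.4 ± 0.31, adjusted p = 0.000826). Itga2b and Itgb3, the chains of the platelet fibrinogen receptor, fell, with changes of -1.99 and -2.33. Erythroid genes fell in 16 of 22 cases, with a median of -1.56, and the one that rose was Tfrc, the transferrin receptor that all dividing cells use. Hbb-bt and Hbb-b2, beta globins with the same value in every library and so with shared reads, had 3.15, 1.73 and 1.69 TPM at day 5 and 54.3, 67.7 and 72.7 TPM at day 3 (-4.39 ± 0.21, adjusted p = 7.57e-12). Car1, a carbonic anhydrase, was at 0.27, 0 and 0.03 TPM at day 5 and 9.78, 14.5 and 15.6 TPM at day 3 (-3.68 ± 0.24, adjusted p = 3.82e-10). Of 12 eosinophil genes 3 fell (5 without day 3 replicate 1) and 2 rose, and the share that fell was near the 24.6% of all genes. Epx, the peroxidase of their granules, had 60.9, 124 and 137 TPM at day 5 and 195, 302 and 280.1 TPM at day 3 (-1.32 ± 0.50, adjusted p = 0.0337), but did not pass without day 5 replicate 1 (adjusted p = 0.141). Among 6 lymphoid genes 1 rose and 2 fell.

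DNA replication genes rose in 26 of 44 cases and none fell, with a median of 0.33. Fen1, the flap nuclease of lagging strands, had 55.7, 103 and 101 TPM at day 5 and 24.6, 42.9 and 41.3 TPM at day 3 (1.22 ± 0.19, adjusted p = 2.26e-05). Rrm2, a subunit of ribonucleotide reductase, had 145, 173 and 194 TPM at day 5 and 69.7, 107 and 105 TPM at day 3 (0.87 ± 0.14, adjusted p = 3.22e-05). Mcm2 and Mcm5, subunits of the replicative helicase, rose by 0.48 and 0.71. Mitotic genes rose in 17 of 35 cases and none fell, with a median of 0.31. Mki67 had 89.8, 122 and 156 TPM at day 5 and 68, 91.2 and 98.3 TPM at day 3, which overlapped although the test passed (0.49 ± 0.17, adjusted p = 0.0217). Both groups leaned on single libraries: without day 3 replicate 1, 19 replication and 7 mitotic genes rose and 3 replication genes fell, and with the 2 groups fitted alone 15 and 8 did. Ccnd1, the cyclin that links growth factor receptors to the cell cycle, was a larger change, with 18.4, 20.6 and 24.1 TPM at day 5 and 3.58, 3.44 and 3.33 TPM at day 3 (2.3 ± 0.15, adjusted p = 4.95e-10). The inhibitors Cdkn2b and Cdkn1a fell (-1.0 ± 0.17, adjusted p = 6.51e-05 for Cdkn2b; -0.48 ± 0.18, adjusted p = 0.0295 for Cdkn1a, whose libraries overlapped), and Rb1 fell, with a change of -0.82. Of the other inhibitors in the list Cdkn1b fell, Cdkn2c rose, and Cdkn1c, Cdkn2a and Cdkn2d did not pass. The kinase Cdk6 fell. Among 22 regulators of the first gap phase 4 rose and 7 fell, against 25.6% and 24.6% of all genes.

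E2F factors act on replication genes through the letters TTTCCCGC or TTTGGCGC. On either strand these were found in the windows of 12 of 36 replication genes (33.3%), 5 of them higher at day 5, and of 324 of 9120 tested genes (3.55%). The stretches of 3 replication genes that rose are shown with the match in capitals. They belong to Mcm5 (chr8:75109324-75109403), to Cdc6 (chr11:98907977-98908056), which loads the helicase, and to E2f2 (chr4:136172277-136172323), itself an E2F factor, all on the plus strand of GRCm38.p6.
Mcm5: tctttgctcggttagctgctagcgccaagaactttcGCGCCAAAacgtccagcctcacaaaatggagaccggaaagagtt
Cdc6: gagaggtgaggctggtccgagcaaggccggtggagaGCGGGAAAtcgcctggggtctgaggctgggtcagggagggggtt
E2f2: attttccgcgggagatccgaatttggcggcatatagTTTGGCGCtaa
In Mcm5 and Cdc6 the match lies upstream of the start and on the opposite strand, and in E2f2 it lies downstream. Of the 12 replication genes with a match, the 7 others did not pass the test. For PU.1 the letters GAGGAAGT were found in 2 of 21 macrophage genes with a window (9.52%) and in 387 of 9120 tested genes (4.24%).

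Of 33 ribosome biogenesis genes, many of them Myc targets, 16 rose and 1 fell, while Myc itself did not pass; without day 3 replicate 1 the counts were 10 and 3. Nme1, a nucleoside diphosphate kinase, had 136, 165 and 155 TPM at day 5 and 58.4, 74.4 and 71.7 TPM at day 3 (1.15 ± 0.11, adjusted p = 6.98e-08), and Bop1, which matures the large ribosomal subunit, rose by 1.0. The cytosolic ribosomal proteins went the other way, with 69 of 77 lower, 2 higher and a median of -0.52. Rps14 had 2222, 1592 and 1559 TPM at day 5 and 3127, 3247 and 3467 TPM at day 3 (-0.89 ± 0.12, adjusted p = 5.67e-06). The 2 that rose were Rpl26 (1.33 ± 0.19, adjusted p = 1.12e-05) and Rpl30 (0.97 ± 0.12, adjusted p = 1.68e-06). With the 2 groups fitted alone 41 fell. The proteins are short and have many pseudogene copies, so their counts may have been divided, and the levels are shares of a total in which other abundant transcripts moved. The RNA subunits of RNase P and RNase MRP, Rpph1 and Rmrp, accounted for 7.04% to 10.2% of TPM at day 5 and 9.57% to 11.9% at day 3, and histone genes for 6.09% to 8.32% at day 5 and 8.13% to 10.3% at day 3. Without these transcripts in the total, 72 of the 77 ribosomal protein genes were lower. Neither Rpph1 nor Rmrp passed the test.

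Of 57 nuclear genes of oxidative phosphorylation 31 rose and 3 fell, with a median of 0.23. Atp5g1, a subunit of the ATP synthase ring, had 312, 338 and 317 TPM at day 5 and 188, 174 and 179 TPM at day 3 (0.84 ± 0.09, adjusted p = 4.33e-07), whereas Ndufa6 of complex I fell (-0.82 ± 0.10, adjusted p = 8.84e-07). The count that rose was 18 without day 3 replicate 1, 20 without day 5 replicate 2 and 15 with the 2 groups fitted alone. Glycolytic and hypoxia genes fell in 13 of 27 cases and none rose, with a median of -0.54. Without day 5 replicate 1, 17 fell and 1 rose, and 7 fell without day 5 replicate 2. Car9, a carbonic anhydrase that hypoxia induces, had 2.09, 1.62 and 1.65 TPM at day 5 and 4.87, 7.63 and 7.78 TPM at day 3 (-1.46 ± 0.14, adjusted p = 8.74e-08). Ero1l, an oxidase of the endoplasmic reticulum, had 592, 106 and 132 TPM at day 5 and 759, 637 and 691 TPM at day 3, with replicate 1 of day 5 nearest to day 3 (-1.77 ± 0.45, adjusted p = 0.00267), and Pgk1 fell, with a change of -1.09.

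Interferon-stimulated genes were lower in 11 of 36 cases and higher in 2, a share lower that was somewhat above the 24.6% of all genes. Irf7, the factor that amplifies interferon production, had 3.02, 2.65 and 3.21 TPM at day 5 and 13.7, 14.7 and 17.3 TPM at day 3 (-2.03 ± 0.18, adjusted p = 2.73e-08). Fth1, the ferritin heavy chain, had 4274, 3248 and 3559 TPM at day 5 and 1487, 963 and 993 TPM at day 3 (1.71 ± 0.25, adjusted p = 1.28e-05), and Slc11a1, an iron transporter of the phagosome, rose by 1.3. Of 18 antioxidant and iron genes 6 rose and 4 fell. Prdx1, a peroxidase, rose by 1.47, and Gclm, a subunit of the enzyme that begins glutathione synthesis, fell, with a change of -1.03. The p53 targets gave 8 higher and 6 lower of 20, and the BCL2 family 8 higher and 5 lower of 16. Immediate early genes, which mark recent stimulation, passed in 2 cases upward and 2 downward of 20, with Junb at 60.3, 46.1 and 48.5 TPM on day 5 and 234, 119.6 and 119 TPM on day 3 (-1.52 ± 0.22, adjusted p = 1.37e-05). Genes of podosomes and matrix gave 10 higher and 4 lower of 21, led by the macrophage elastase Mmp12, with 1359, 749.6 and 761 TPM at day 5 and 129, 219.9 and 246 TPM at day 3 (2.26 ± 0.35, adjusted p = 2.69e-05). Integrins and adhesion genes gave 8 higher and 3 lower of 19, and complement and coagulation genes 4 higher and 8 lower of 18. Among all genes 25.6% were higher and 24.6% lower. Without day 5 replicate 2 the lower counts were 3 for p53 targets, 3 for the BCL2 family and 5 for complement and coagulation genes. The integrins and adhesion genes that rose numbered 3 without day 3 replicate 2, 4 without day 3 replicate 3 and 5 without day 5 replicate 3, and 5 fell without day 5 replicate 1.

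**Figure D3:**
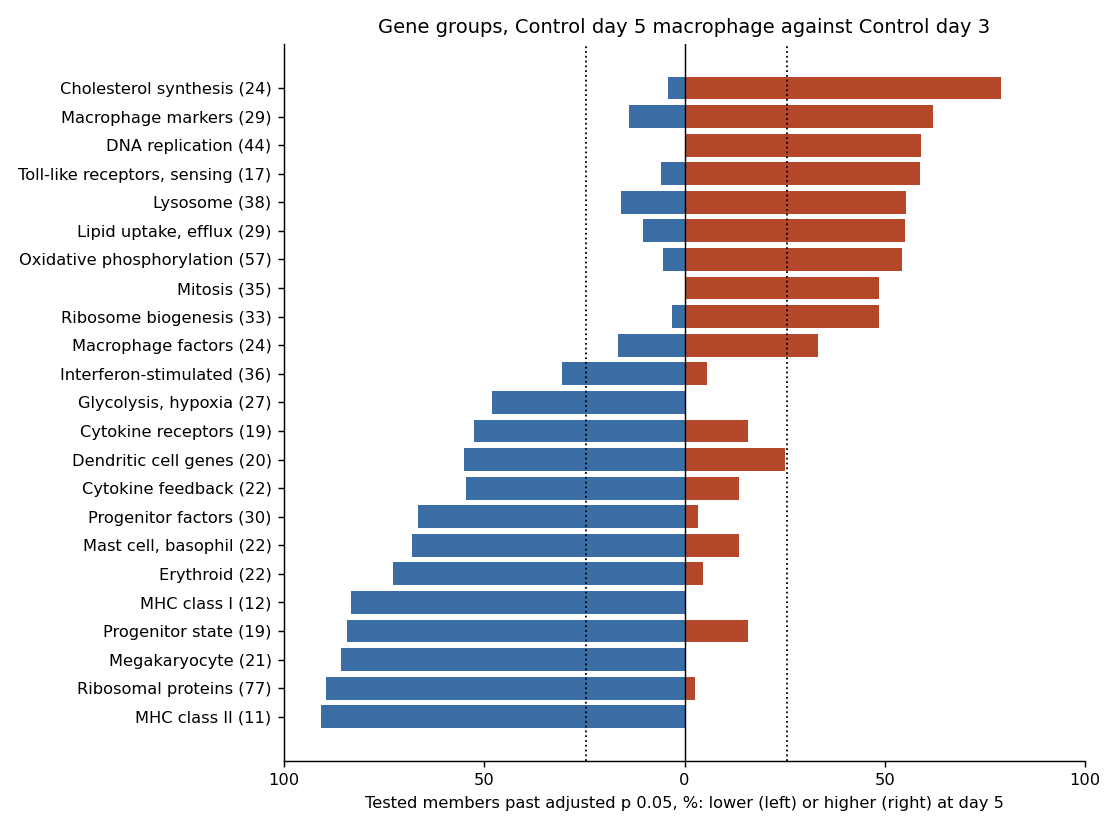
Share of the tested members of each gene group (number in brackets) that were higher (red, right) or lower (blue, left) in Control day 5 macrophage than in Control day 3 libraries at an adjusted p under 0.05. The dotted lines mark the share of all tested genes, 25.6% higher and 24.6% lower; cholesterol synthesis stands at the top, with 19 of 24 higher, and MHC class II at the bottom, with 10 of 11 lower.

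Set in the whole control macrophage course, day 5 was a low point for Csf1r and Apoe. Csf1r averaged 34.9 ± 1.97 TPM at day 0, 66.9 ± 6.69 TPM at day 3, 31.2 ± 1.53 TPM at day 5 and 204 ± 38.8 TPM at day 7 (SD, n = 3 each). At day 7 the cells had spent the last 2 days in M-CSF alone. Apoe averaged 166 ± 39.4 TPM at day 0, 63 ± 31.4 at day 3, 4.37 ± 2.81 at day 5 and 156 ± 22.8 at day 7. In both genes the day 5 libraries lay below both the day 3 and the day 7 libraries. Ccl17 had the opposite course, with 1.15 ± 1.14 TPM at day 0, 39.7 ± 13.2 at day 3, 174 ± 29.1 at day 5 and 0.227 ± 0.26 at day 7. Gpnmb, at 0.09 ± 0.0866, 170 ± 16.8, 927 ± 80.5 and 2590 ± 1060 TPM, and Ccnd1, at 7.6 ± 1.3, 3.45 ± 0.125, 21 ± 2.92 and 98.1 ± 19.2 TPM, were highest at day 7. The comparisons with days 0 and 7 are given as levels only.

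**Figure D4:**
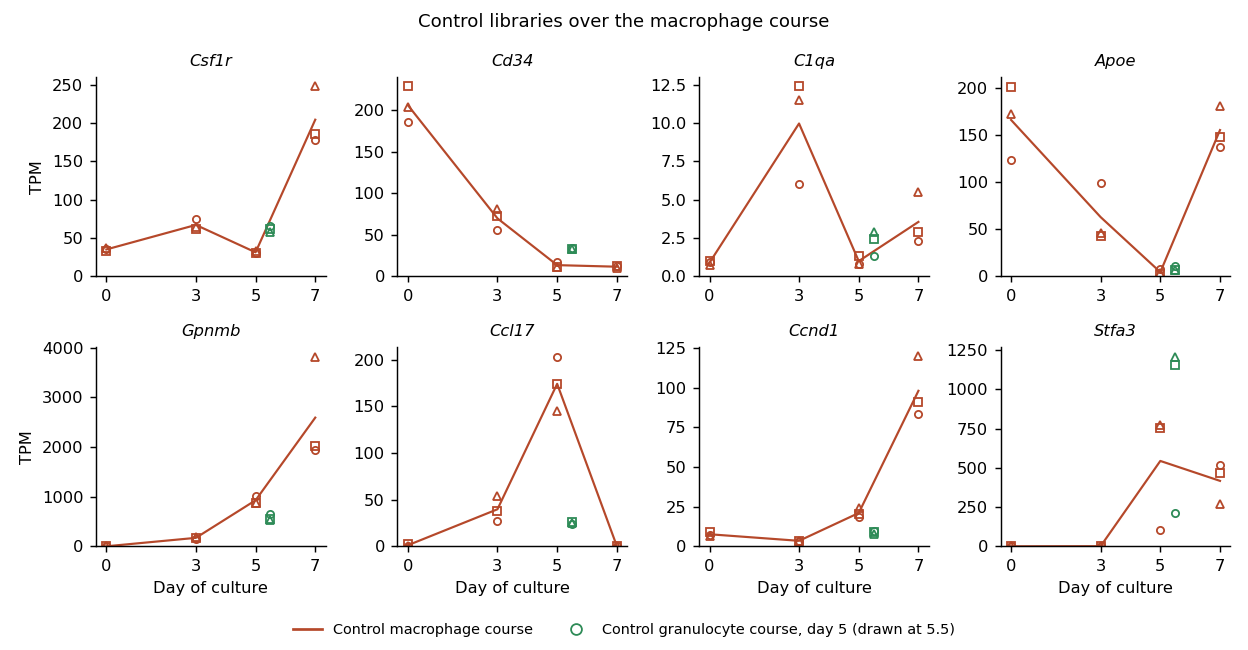
TPM of 8 genes in the control libraries over the days of the macrophage course (red, line through the means of 3 libraries) and in the granulocyte course at day 5 (green, drawn at 5.5), with symbols for the replicates. Csf1r and Apoe are lower at day 5 than at days 3 and 7, Ccl17 peaks at day 5, and replicate 1 of day 5 is the lowest Stfa3 value of that day in both courses.

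Far fewer genes passed the test between the courses at day 5 than between the days. At day 5, 97 of 11520 genes were higher in the Control macrophage course than in the Control granulocyte course (0.842%) and 221 lower (1.92%), in a fit over the control libraries of both courses. The protocol divided the day 3 cells between the courses, and equal replicate numbers deviated together at day 5. Macrophage replicate 2 correlated best with granulocyte replicate 3, however, and 3 with 2, so the number is an uncertain pairing. With the number as a block and the 2 groups fitted alone, 340 genes were higher and 511 lower. The sum of 318 genes was 184 and 180 without replicates 2 and 3 of the macrophage course, and 175 and 198 without replicates 2 and 3 of the granulocyte course. Of the 318 genes, 268 had also changed between day 3 and day 5 of the macrophage course. Both contrasts use the same day 5 macrophage libraries, so the values are set side by side only. Slc39a2 had 21.4, 23.1 and 21.1 TPM in the macrophage course, against 2.41, 1.92 and 2.38 TPM in the granulocyte course (2.82 ± 0.22, adjusted p = 1.38e-05). Ccl17 had 203, 174 and 145 TPM in the macrophage course and 24.3, 25.6 and 24.5 TPM in the granulocyte course (2.75 ± 0.25, adjusted p = 2.78e-05), and Msr1 had 104, 98.5 and 97.3 TPM in the macrophage course and 53.4, 47.2 and 47.8 TPM in the granulocyte course (adjusted p = 0.000621). Ccnd1, with 18.4, 20.6 and 24.1 TPM in the macrophage course and 9.47, 9.22 and 7.63 TPM in the granulocyte course, also passed (adjusted p = 0.000396).

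Most genes that differed were lower in the macrophage course. Tph1, which makes serotonin in mast cells, had 2.53, 1.11 and 1.1 TPM in the macrophage course and 27.5, 50.6 and 52.8 TPM in the granulocyte course (-4.10 ± 0.38, adjusted p = 3.42e-05). Ccl24 had 4.95, 3.25 and 2.9 TPM in the macrophage course and 116, 52.2 and 48 TPM in the granulocyte course (-3.86 ± 0.25, adjusted p = 2.16e-06), both below its day 3 level. Il1b, the inflammatory cytokine, had 16.5, 14.3 and 11.7 TPM in the macrophage course and 88.7, 85.3 and 99.8 TPM in the granulocyte course (-2.62 ± 0.30, adjusted p = 0.000204). Csf1r, too, was lower, with 30.03, 30.6 and 32.9 TPM in the macrophage course and 65.4, 62.1 and 58.2 TPM in the granulocyte course (-0.97 ± 0.15, adjusted p = 0.00178). The granulocyte course had SCF, IL-3 and G-CSF in place of GM-CSF and M-CSF. Lower in the macrophage course were 11 of 15 erythroid genes, 8 of 23 mast cell and basophil genes, 6 of 14 lectins, 5 of 11 MHC class II genes and 5 of 18 progenitor genes. None of the replication, mitotic, cholesterol synthesis or lysosomal genes in the lists passed in this contrast. The stefin Stfa3 had 101, 757 and 775 TPM in the macrophage course and 212, 1153 and 1209 TPM in the granulocyte course, with replicate 1 lowest in both.

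The change from day 3 to day 5 was also set against the same change in Taf1 KO cells. Taf1, the targeted gene, which encodes the largest subunit of the general factor TFIID, had 12.6, 13 and 13.8 TPM in Control day 5 macrophage libraries and 9.62, 10.9 and 11.4 TPM in Control day 3 libraries. In Taf1 KO cells it had 6.15, 6.23 and 5.94 TPM at day 5 and 8.66, 10.3 and 9.06 TPM at day 3, below the control libraries at day 5 and overlapping with them at day 3. The difference of the 2 changes, control minus Taf1 KO, was positive past the threshold for 3493 of 11953 genes (29.2%) and negative for 650 (5.44%). The median of all genes was 0.24, and after median-of-ratios scaling, which removed that shift (-0.003), the counts were 1579 and 1491. Csf1r had 30.03, 34.9 and 35.5 TPM in Taf1 KO cells at day 5 and 30.1, 26.3 and 27.3 TPM in Taf1 KO cells at day 3, so that the day 3 level of the controls was the high one (difference -1.33 ± 0.16, adjusted p = 1.12e-05). Mcm2 had 62.5, 58.2 and 56.9 TPM at day 5 and 91.8, 106 and 105 TPM at day 3 in Taf1 KO cells (1.24 ± 0.14, adjusted p = 9.52e-06). The difference was positive for 42 of 44 replication genes (35 after scaling) and 21 of 24 cholesterol synthesis genes (15 after scaling), and negative for 14 of 21 megakaryocyte genes (17 after scaling) and 9 of 29 macrophage genes (12 after scaling).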

How the data were processed

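RNA-seq of total RNA with a KAPA stranded kit covered 36 libraries in 12 groups of 3. The authors deposited TPM values per gene (24411 genes); RSEM, DESeq2 1.38.3 and the mm10 genome are named per the submitters' processing notes, and the RSEM version and annotation are not given in the sources used here. TPM keeps no depth, so reads per library are unknown, no counting interval was computed and no count test was run. All table columns were mapped to samples, and 12 columns present in both tables were equal.

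Differences were tested with limma 3.58.1 (R 4.3.3), with a mean-variance trend, on log2(TPM + 1). The fit held the 24 libraries of the macrophage table as 8 groups, which share one estimate of spread, and genes with 1 TPM or more in 3 or more libraries. P-values were two-sided and adjusted by Benjamini-Hochberg over all genes tested, with a threshold of 0.05. The difference between the control and Taf1 KO changes was an interaction contrast in the same fit, and the courses at day 5 were compared in a fit of the 15 control libraries from day 3 on. On simulated data with known answers for the day 5 against day 3 comparison (11856 genes), 89% of 100 genes changed by 1 on the log2 scale were recovered and 53% of 100 changed by 0.5, and 9 of 11656 unchanged genes were called. The simulated noise was independent between genes, and few genes were changed. No simulated library deviated across many genes together, as day 5 replicate 1 did, so these rates may not hold for the real libraries.

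The labels do not say that replicates came from separate mice or cultures. Equal replicate numbers deviated together between the day 5 macrophage and granulocyte courses (r = 0.781, 0.569 and 0.473 across genes), as did macrophage replicate 2 with granulocyte replicate 3 (0.635) and 3 with 2 (0.485). Every equal-number r was over 0.1, the limit used for a pairing, but the numbers do not tell replicates 2 and 3 apart. The block is therefore given as an alternative only. Genes named are 52 fixed genes, the 15 largest rises and 15 largest falls (5 TPM or more in the higher group, libraries not overlapping) and up to 5 members with the smallest p of each of 44 gene lists. Additional list members were named to spell out a group after their values were seen, and a few genes that the rule names are not reported here. The members and lists were chosen with earlier results of these data known. Promoter windows came from RefSeq on GRCm38.p6 and were matched by symbol.

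Alternatives changed the added value, the filter, the scaling, the groups fitted, the replicate block, the most abundant transcripts and each library in turn.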

Additional observations from a re-analysis of the deposited data

Results flagged for a closer look

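Among the 52 fixed genes 10 differed between the macrophage and the granulocyte course at day 5, and the 15 given here differed in their change from day 3 to day 5 between control and Taf1 KO cells both as deposited and after scaling. Each was past the threshold of its own limma test. Of all genes 318 of 11520 differed between the courses, and 4143 of 11953 between the genotypes as deposited (3070 of 11906 after scaling). No explanation was tested.

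At day 5, Ccl17, Ccnd1, Msr1 and Irf8 were higher in the macrophage course than in the granulocyte course, by 2.75, 1.17, 1.0 and 0.83 on the log2 scale. Irf8 had 18.8, 18 and 19.3 TPM in the macrophage course and 8.46, 10.8 and 11.2 TPM in the granulocyte course. Lower in the macrophage course were Csf1r (-0.97), Csf3r, the G-CSF receptor (-0.93), Cd34 (-1.27), Cpa3 (-2.24), H2-Aa (-1.22) and Cd74 (-0.99). Csf3r had 28.4, 18.6 and 19.1 TPM in the macrophage course and 47, 39.1 and 40.4 TPM in the granulocyte course, and Cpa3 had 145, 87.6 and 80.04 TPM in the macrophage course and 405, 510.1 and 534 TPM in the granulocyte course.

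The control change exceeded the Taf1 KO change for Fcgr1 (1.54), Mcm2 (1.24) and Taf1 itself (0.82). It lay below the Taf1 KO change for Csf1r (-1.33), Irf8 (-0.46), Msr1 (-1.21), Mrc1 (-1.13), Mertk (-0.64), Fabp4 (-0.99), Apoe (-2.23), C1qa (-2.21), Pf4 (-1.8), Cdkn1a (-0.87), Cd74 (-1.73) and Ctsl (-1.44). In Taf1 KO cells Apoe had 2.08, 0.7 and 0.6 TPM at day 5 and 14.5, 1.98 and 2.12 TPM at day 3, and C1qa had 0.19, 0.11 and 0.09 TPM at day 5 and 0.35, 0.06 and 0.56 TPM at day 3. C1qa was thus under 1 TPM in every Taf1 KO library of both days, where hardly any fall could show. Apoe was also low in Taf1 KO replicates 2 and 3 at day 3, which left little room for a fall there. Msr1 had 23.4, 36.7 and 33.4 TPM in Taf1 KO cells at day 5 and 2.32, 1.76 and 1.49 TPM at day 3.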

How the results depend on the processing

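The counts of genes that differed between day 5 macrophage and day 3 libraries were computed under 16 alternatives. With the 2 groups fitted alone 2012 genes were higher and 1897 lower. Leaving out 1 library at a time gave 2350 to 3058 higher and 2259 to 3512 lower, and no filter on low values gave 3179 and 3916. The replicate numbers did not pair these days (r = 0.295, 0.244 and 0.0429 for equal numbers, the last under 0.1, and replicate 3 of day 5 correlated best with replicate 2 of day 3, r = 0.305). With the replicate number as a block 2999 genes were higher and 2878 lower, and in the block with the 2 groups alone 2062 and 1804. Of 234 named genes that passed, 221 were tested under all 16 alternatives, and 203 of these stayed past the threshold in each; no passing gene changed direction where it was tested. Without day 5 replicate 1, Adgre1, Cd68, Mertk and Epx did not pass, and S100a8 and Csf3r did. Among named genes that did not pass, the change lay on both sides of 0 as single libraries were left out: Csf2rb2 from -0.164 to 0.308, Egr2 from -0.44 to 0.043, Fabp4 from -0.505 to 0.023 and Camp from -0.15 to 0.75. The 318 genes that differed between the courses at day 5 became 210 with a filter of 5 TPM, 158 with the 2 groups alone, 366 with the replicate block, 851 with the block and the 2 groups alone, and 175 to 388 as single libraries were left out. The cause of these shifts was not tested, beyond the fewer residual degrees of freedom of the groups fitted alone. The 4143 genes whose change differed between control and Taf1 KO cells ranged from 3077 to 4580 without single libraries, were 3957 with the replicate block and 3070 after scaling. Leaving out single granulocyte and Taf1 KO libraries was chosen after seeing the data. TPM gives no depth, so no limit for low genes can be set.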
